A study of Bos taurus with 6 samples.

Results

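The genes described here are 10 genes of bone morphogenetic protein (BMP) signaling, measured by mRNA-seq in the intramuscular fat (IMF) of castrated and intact male Qinchuan cattle. They were chosen by symbol, with earlier results of these data known, and all 10 were found among the 25444 genes of the count table. They comprise the ligands BMP2, BMP3, BMP4 and BMP6, the protease BMP1, the receptors BMPR1A and BMPR2, the secreted antagonists GREM1 and NOG, and the target gene ID1. The steers had been castrated by surgery at 6 months of age and the bulls were left intact. Both groups were weaned at 3 months, received the same diet, shared a sire and were slaughtered at 24 months, when IMF was dissected from the sternomandibularis muscle. RNA of each group was pooled into 1 library. The pools held 6 animals each per the design text, whereas the sample labels give 3. The spread between animals therefore cannot be seen in these data, and no test of castration is possible.

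BMPs are secreted dimers of the TGF-beta superfamily. They bind a type I receptor such as BMPR1A together with a type II receptor such as BMPR2, and the receptor pair phosphorylates SMAD1, SMAD5 and SMAD9, which enter the nucleus with SMAD4 and switch on genes such as ID1. Antagonists such as gremlin (GREM1) and noggin (NOG) bind the ligands outside the cell and keep them from the receptors. In fat, BMP2 and BMP4 are known for committing mesenchymal progenitors to the adipocyte lineage. BMP1 bears the family's name but is no ligand of it, since it is a metalloprotease that trims procollagens and cleaves the BMP antagonist chordin.

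The counts summed to 12677375 in steers and 9868415 in bulls. The libraries were scaled with size factors of 1.04 and 0.959, obtained as the median ratio of each gene to its mean over both libraries. The log2 fold change (log2FC) is log2 of the normalised read count in steers over that in bulls, with 0.5 added to each, and its 95% interval covers counting error only. A gene was counted as past 2-fold when its log2FC was over 1 or under -1 and its interval excluded 0. Among the 14540 genes with at least 10 counts over both libraries, 824 (5.67%) were past 2-fold in the higher direction in steers and 1484 (10.2%) in the lower direction, or 15.9% in all. The collagen and fibroblast genes COL1A1, COL1A2, COL3A1, DCN, LUM, FBN1, THY1 and PDGFRA made up 9.52% of all counts in steers against 5.80% in bulls. With libraries scaled by total counts, the log2FC of genes with many counts was lower by about 0.24, the median of all genes was -0.23, and 562 genes were past 2-fold higher against 2017 lower, so that 21.8% of them were higher instead of 35.7%.

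The tissue label was checked with markers of cell types. Adipocyte genes were present in both libraries, with CIDEC highest in steers (9931 reads in steers against 7501 in bulls) and FABP4 highest in bulls (3951 and 7574), and none of 7 was at 0. Together the 7 genes made up 0.234% of all counts in steers and 0.338% in bulls. They had 29679 reads in steers against 33360 in bulls, a log2FC of -0.29 (interval -0.31 to -0.27). FABP4 was past 2-fold lower at -1.06. The median log2FC of the 7 genes was -0.02, with 3 above 0 and 4 below. Skeletal muscle was present as well, with ACTA1 at 13852 and 19910 counts and none of 8 muscle genes at 0. The muscle genes had 29508 reads in steers against 41294 in bulls, with MYH7 of slow fibres past 2-fold lower at -2.23 and MYH1 of fast fibres past 2-fold higher at 1.15. MYH1 had 247 and 102 counts. The fast-fibre genes MYH2 (5396 and 4929 counts) and TNNT3 (1189 and 1011) were not past 2-fold, at 0.008 and 0.11. The part of muscle in the values of the BMP genes was not tested. Markers of immune cells were lower in steers, also with each library scaled by its total. The 8 myeloid genes had 20330 reads in steers against 42292 in bulls, with 6 of 8 past 2-fold lower, and the 7 T lymphocyte genes had 109 and 755, with 7 of 7 lower and CD3G at 0 in steers. In a bulk sample, fewer cells of a type and less RNA per cell cannot be told apart.

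**Figure D1:**
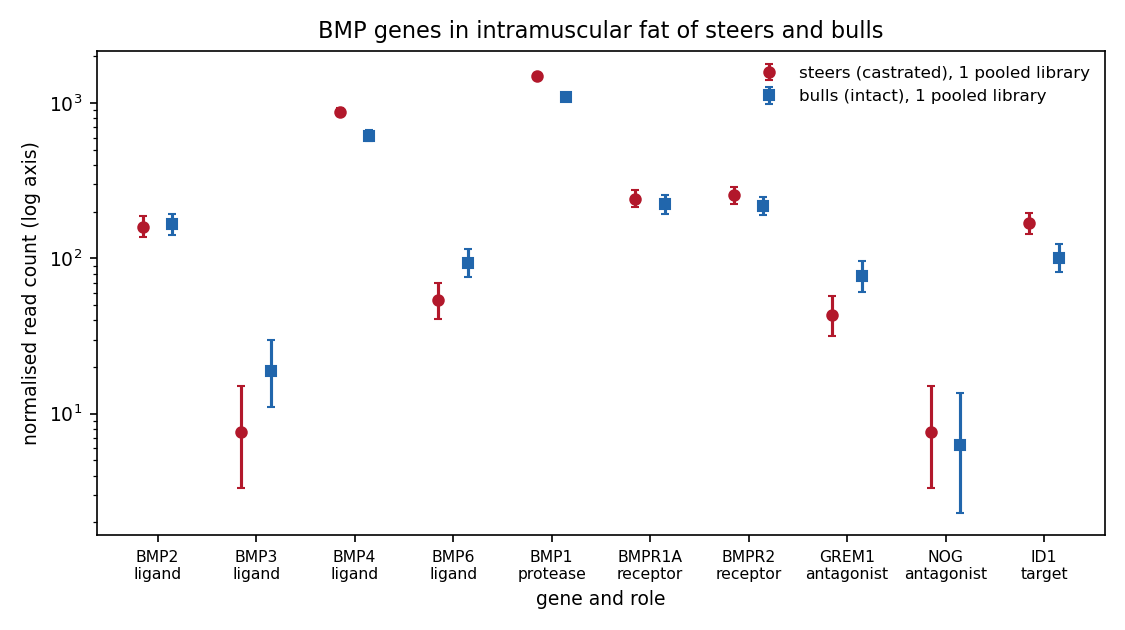
Normalised read count (log axis) of the 10 BMP genes in the pooled library of steers (circles) and of bulls (squares), with 95% Poisson intervals for counting error. BMP1 and BMP4 had the highest normalised read counts in both libraries and BMP3 and NOG the lowest, and gene lengths were not taken into account.

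Of the 10 genes, 0 were past 2-fold higher in steers and 1, BMP3, was lower, against 5.67% and 10.2% of all genes tested. At a threshold of 1.5-fold, ID1 was higher and BMP3, BMP6 and GREM1 were lower, where 12.2% of all genes were higher and 15.8% lower. The counting interval lay above 0 for BMP1, BMP4 and ID1 and below 0 for BMP3, BMP6 and GREM1, and it included 0 for BMP2, BMPR1A, BMPR2 and NOG. Among all genes the interval lay above 0 in 27.4% and below 0 in 25.1%, so such intervals were common in this pair of libraries. The median log2FC was 0.17 over the 10 genes and 0.01 over all genes tested. All 10 genes passed the minimum of 10 counts.

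**Figure D2:**
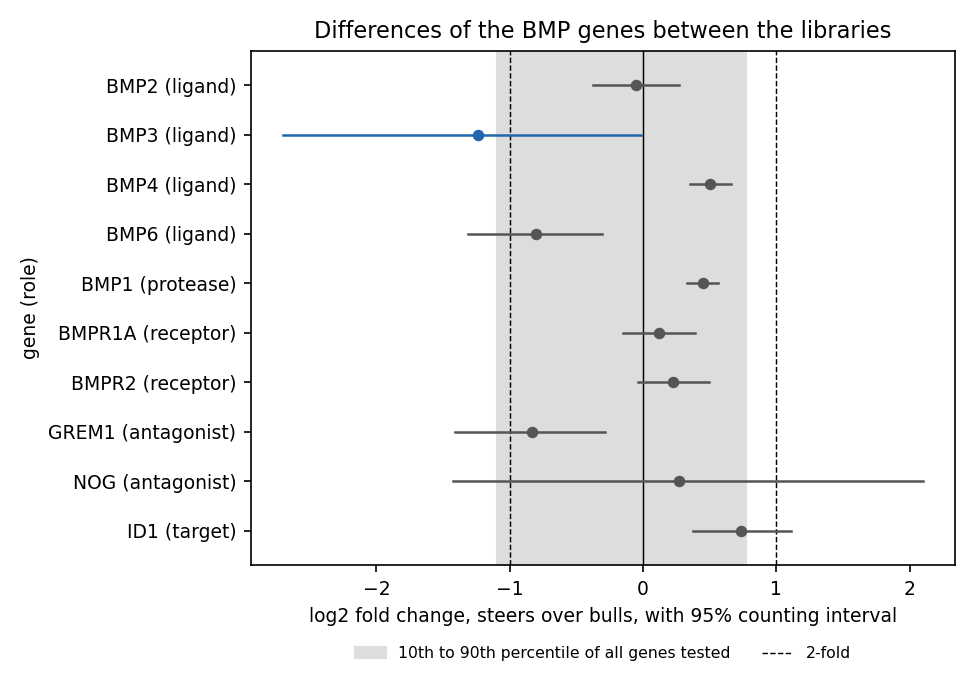
Log2 fold change of steers over bulls (points) with 95% counting intervals (lines) for the 10 BMP genes, beside the 10th to 90th percentile of all genes tested (grey, -1.10 to 0.77) and the 2-fold lines (dashed). BMP3 (blue) alone lay past 2-fold with an interval that excluded 0, and its interval ended at -0.02.

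The ligands did not move together. BMP4 had 915 reads in steers against 592 in bulls, or 877 and 618 after normalisation. It was higher in steers by 0.51 on the log2 scale (interval 0.36 to 0.66), a fold of 1.42, and 17.5% of all genes had a higher log2FC. BMP2, which shares the receptors of BMP4 and is its closest relative, had 167 and 159 counts. Its normalised read counts of 160 and 166 were almost equal, with a log2FC of -0.05 (interval -0.37 to 0.27), which ranged from -0.35 to -0.04 over 5 library scalings.

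BMP6, a ligand known for controlling hepcidin in the liver, went the other way. It had 56 reads in steers against 90 in bulls, normalised to 53.7 and 93.9, and its log2FC was -0.80 (interval -1.32 to -0.31), a level 1.74 times as high in bulls. BMP3, an atypical member that restrains the activity of other BMPs, was scarce, with 8 and 18 counts. Its log2FC of -1.24 was the lowest of the 10 genes and its interval of -2.70 to -0.02 was wide. The myeloid and T lymphocyte markers were lower in steers as well. The summed skeletal muscle and adipocyte markers were also lower, at -0.61 and -0.29, while the summed collagen and fibroblast markers were higher at 0.95. The part of any of these cell types in the values of BMP6 and BMP3 was not tested. Summed, the 4 ligands had 1146 reads in steers against 859 in bulls, mostly from BMP4, and a log2FC of 0.29 (interval 0.16 to 0.42). This difference depended on the scaling, as the ligands made up 0.00904% of all counts in steers and 0.008705% in bulls.

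BMP1 had the most counts of the 10 genes, 1559 in steers and 1051 in bulls. After normalisation these were 1494 and 1096, a log2FC of 0.45 (interval 0.33 to 0.56) and a fold of 1.36. Its interval was the narrowest of the 10, and 20.2% of all genes had a higher log2FC. Among the collagen genes that supply substrates of BMP1, COL1A1 was at 1.00 and COL3A1 at 1.27 on the same scale. Their part in the difference of BMP1 was not tested.

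The receptors differed little between the libraries. BMPR1A had 253 reads in steers against 214 in bulls, normalised to 242 and 223, and a log2FC of 0.12 (interval -0.15 to 0.39). BMPR2 had 266 and 209 counts, normalised to 255 and 218, and a log2FC of 0.23 (interval -0.04 to 0.49). Both intervals included 0 and both stopped short of 2-fold.

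Of the antagonists, GREM1 was lower in steers, with 45 counts against 74 in bulls, normalised to 43.1 and 77.2. Its log2FC was -0.83 (interval -1.41 to -0.29), and 13.7% of all genes had a lower log2FC. The fibroblast gene PDGFRA was at -0.48 and the 8 collagen and fibroblast genes had a median log2FC of 0.94, and the part of stromal cells in the value of GREM1 was not tested. NOG was barely detected, with 8 reads in steers against 6 in bulls. Its log2FC of 0.27 had an interval of -1.42 to 2.10, so that neither a higher nor a lower level could be read at this depth.

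ID1, which encodes an inhibitor of basic helix-loop-helix factors and is a direct target of BMP-activated SMADs, had 176 reads in steers against 97 in bulls. The normalised read counts were 169 and 101 and the log2FC was 0.74 (interval 0.37 to 1.11), the highest of the 10 genes. A higher log2FC was found in 10.6% of all genes. Since ID1 is also an endothelial gene, endothelial markers are given beside it. Of 10 such markers 0 were past 2-fold in either direction, and none was at 0. They had 10680 reads in steers against 10209 in bulls, and their median log2FC was -0.24, with PECAM1 at 0.16 and TEK at -0.66. ID1 was not past 2-fold either, and the part of endothelial cells in its value was not tested.

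**Figure D3:**
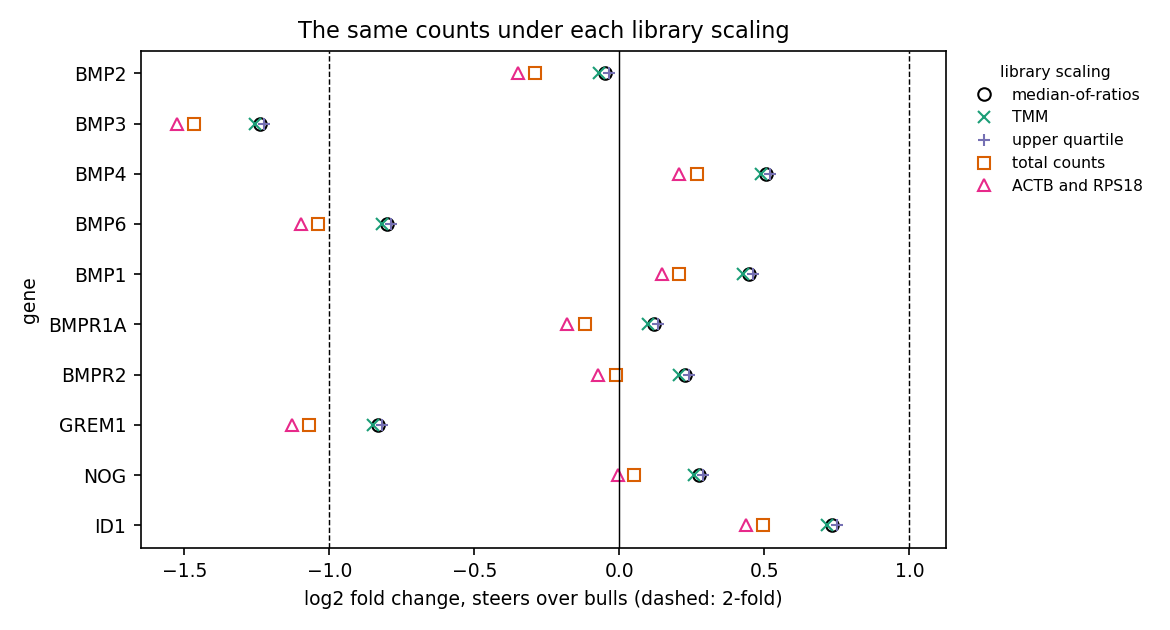
Log2 fold change of steers over bulls for the 10 BMP genes under 5 library scalings, each a different symbol. The scalings by total counts and by ACTB and RPS18 lay to the left of the other 3 for every gene, which placed BMP6 and GREM1 past the 2-fold line (dashed) and BMPR1A and BMPR2 below 0.

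The sign of the log2FC was the same under all 5 scalings for 7 of the 10 genes, with BMP1, BMP4 and ID1 above 0 and BMP2, BMP3, BMP6 and GREM1 below 0. It ranged from 0.21 to 0.52 for BMP4, from 0.15 to 0.46 for BMP1 and from 0.44 to 0.75 for ID1. For BMP6 it ranged from -1.10 to -0.79 and for GREM1 from -1.13 to -0.82, and both were past 2-fold lower with total counts and with ACTB and RPS18. BMPR1A, BMPR2 and NOG changed sign between scalings.

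The other genes of the pathway were taken from a list of 57, of which 52 were in the table and 45 had at least 10 counts. Of these 45 genes, 9 were past 2-fold higher in steers and 5 were lower, against 5.67% and 10.2% of all genes tested, and 31 were not past it. The list was written with earlier results of these data known, so setting it beside these shares is no test of the pathway. The median log2FC of the 45 genes was 0.18. With total counts 4 of the 9 were still past 2-fold higher, namely BMPER, FST, PCOLCE and SOST, and GDF5 and SMURF1 joined the lower ones.

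Among the other ligands, BMP7 and BMP5 differed in opposite directions. BMP7, known for promoting brown fat, had 244 reads in steers against 108 in bulls and a log2FC of 1.05 (interval 0.72 to 1.39), which was 0.81 with total counts. BMP5 had 71 and 144 counts and a log2FC of -1.14 (interval -1.57 to -0.72). BMP8B, BMP10, GDF2, GDF6 and GDF7 had 0 counts in both libraries, which allows up to 3 counts in each.

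The other receptors also split. BMPR1B, a type I receptor like BMPR1A, had 41 reads in steers against 121 in bulls, with a log2FC of -1.67 (interval -2.23 to -1.16). ACVRL1, the type I receptor of endothelial cells known as ALK1, had 2231 and 960 counts and a log2FC of 1.09 (interval 0.98 to 1.21), which was 0.86 with total counts. Its endothelial co-receptor ENG was at 0.18 (interval 0.11 to 0.24), and at -0.06 with total counts. ACVR1, a further type I receptor, was at -0.17 with an interval of -0.35 to 0.01.

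The signal transducers lay near 0, with SMAD1 at 0.14, SMAD5 at 0.03 and SMAD4 at 0.26, signs that all turned below 0 with ACTB and RPS18, and for SMAD1 and SMAD5 also with total counts. SMAD9 was scarce, with 14 reads in steers against 27 in bulls, and was past 2-fold lower at -1.04 (interval -2.12 to -0.09). The inhibitory SMADs, which BMP signals themselves switch on, were at 0.28 for SMAD6 (90 and 68 counts, interval -0.19 to 0.76) and 0.46 for SMAD7 (136 and 91 counts, interval 0.06 to 0.86), and SMAD6 was at -0.02 with ACTB and RPS18. BAMBI, a decoy receptor without a kinase, was at -0.72 (56 and 85 counts).

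Secreted modulators made up 5 of the 9 genes that were higher, and 12 of the 45 genes with at least 10 counts. FST, the activin and BMP binding protein follistatin, had 515 reads in steers against 189 in bulls and a log2FC of 1.32 (interval 1.08 to 1.57). BMPER had 29 and 5 counts and was at 2.31 (interval 1.03 to 4.14). The others were NBL1 at 1.00 (6655 and 3046 counts), the sclerostin gene SOST at 1.98 (23 and 5 counts) and KCP with 9 and 1 counts, where the interval ran from 0.20 to 8.50. NBL1 lay at the threshold and was at 0.77 with total counts.

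One modulator was past 2-fold lower, and most others differed by less. SOSTDC1, an antagonist of BMP and Wnt ligands, had 28 reads in steers against 154 in bulls, and its log2FC of -2.56 (interval -3.22 to -1.99) was the lowest of the 45 genes. CHRD, the chordin that BMP1 cleaves, was at 0.34 (582 and 421 counts), TWSG1 at 0.39 and CHRDL1 at 0.26 (6337 and 4880 counts). With ACTB and RPS18, CHRD was at 0.05, TWSG1 at 0.09 and CHRDL1 at -0.04. PCOLCE, which enhances the cutting of procollagen by BMP1, had 27778 and 10364 counts and a log2FC of 1.30 (interval 1.27 to 1.33). PCOLCE2, another enhancer in the list, had 8449 and 9595 counts and was at -0.31 (interval -0.35 to -0.26).

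Of the other target genes, ID3 resembled ID1 and ID2 did not. ID3 had 1173 reads in steers against 667 in bulls, a log2FC of 0.69 (interval 0.55 to 0.83), and ID2 had 595 and 709, at -0.38 (interval -0.53 to -0.22). MSX2 was past 2-fold higher with 26 and 10 counts and a log2FC of 1.22 (interval 0.16 to 2.47). RUNX2, the master factor of bone formation, was past 2-fold lower with 20 and 55 counts, at -1.56 (interval -2.40 to -0.82). ID4 was not analysed here.

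**Figure D4:**
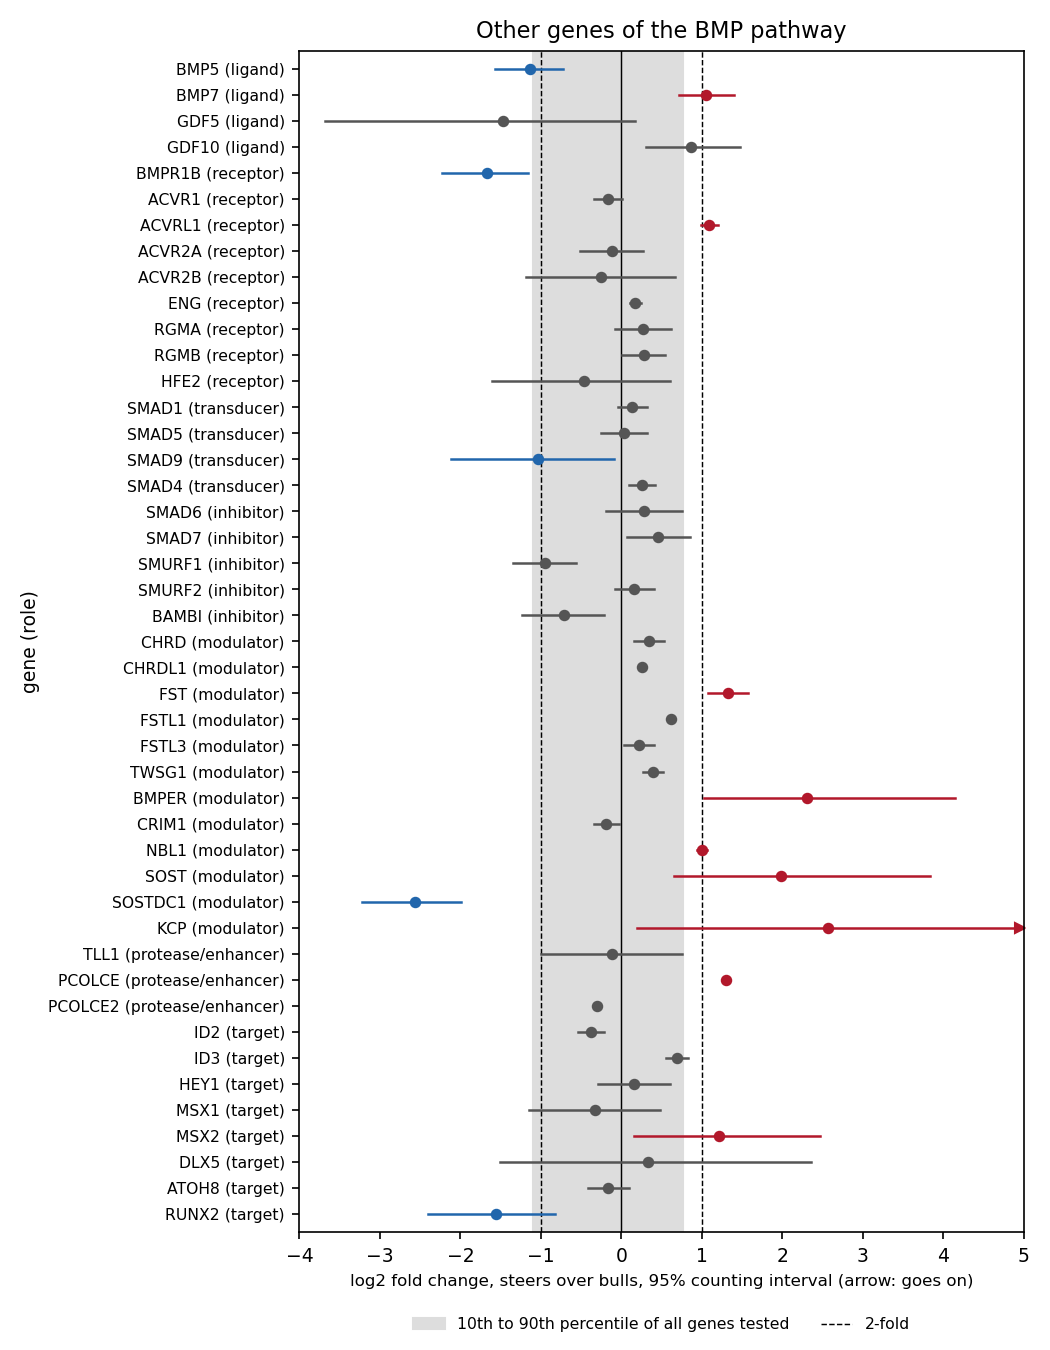
Log2 fold change of steers over bulls (points) with 95% counting intervals (lines) for the 45 other BMP pathway genes with at least 10 counts, ordered by role, with genes past 2-fold higher in red and lower in blue. The 9 red genes include FST, ACVRL1 and PCOLCE with narrow intervals, and the interval of KCP runs beyond the axis.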

How the data were processed

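IMF mRNA was measured in 2 pooled libraries, 1 of steers and 1 of bulls, grouped by the treatment in their labels. The authors removed adaptors and low-quality Ion Proton reads and aligned the rest to the bovine genome (Btau4.6.1) with MapSplice (v2.1.8), and they deposited raw read counts per gene without normalisation. How reads were counted, and whether by strand, is not given in the sources used here, and the submitters' processing notes name BWA and a human build. RNA of animals was pooled before sequencing, which hides the spread between them.

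Size factors, fold changes and 95% Clopper-Pearson intervals were computed with numpy 2.4.6 and scipy 1.17.1, and the steps were tested on simulated data. The intervals cover counting error alone and take reads as independent. PCR copies of a molecule count as separate reads, so the intervals may be too narrow even for that error. edgeR 4.0.16 under R 4.3.3 gave TMM and upper-quartile factors. Neither edgeR's quasi-likelihood test nor the EBSeq test of the study was used, as both need replicates to test conditions, and no p-value is given. The text names the 10 genes, 21 further pathway genes set by name, all that were past 2-fold, and markers with the most counts or at 0. GDF5, SMURF1, ENG, PCOLCE2, the ligands at 0 and markers set beside a result were named after their values were seen. The genes and lists were chosen, from general knowledge, with earlier results of these data known. In a RefSeq table of cattle genes (ARS-UCD2.0), all 10 symbols matched and 0 overlapped another gene. Positions on the authors' build, sequences and the small RNA counts were not used here.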

Additional observations from a re-analysis of the deposited data

How the results depend on the processing

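No paired analysis was possible because each group had 1 mRNA library, and no library could be left out. Over 9 alternatives, 88 of 111 values stayed close to those reported (counts of genes within 1.5 times, single genes within their interval) and 23 moved, and BMP3 kept its sign. The shift of scaling itself (log2, -0.24 with total counts and -0.30 with ACTB and RPS18) moved most of them. A gene with few counts has a wide interval, so its value could hardly move by this rule. NOG at -0.006 with ACTB and RPS18 was counted as close although its sign had changed. With total counts, 3 of the 10 genes were past 2-fold lower (BMP3, BMP6 and GREM1), 4 other pathway genes were higher, the median of the 10 genes was -0.066, BMP4 was at 0.27 and BMP1 at 0.21. With ACTB and RPS18, the same 3 genes were lower, 4 other pathway genes were higher and 8 lower, 516 of all genes were higher, and 19.2% of the calls were higher. The median was then -0.13, with BMP4 at 0.21, BMP1 at 0.15, BMPR1A at -0.18 and BMPR2 at -0.073. With at least 50 counts, 8 of the 10 genes were left and 0 were lower, 5 other pathway genes were higher, and 462 of all genes were higher and 975 lower, as fewer genes were tested. With a prior of 5 counts 0 of the 10 genes were lower, since BMP3 came under the threshold. At 1.5-fold, 1 of the 10 genes was higher and 3 were lower, and of all genes 1769 were higher and 2301 lower. Depth limits BMP3 and NOG most, with 26 and 14 counts over both libraries.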

Other observations

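Ratios of the counts of 2 genes within a library do not depend on how libraries are scaled. The pairs given here were picked after the counts had been seen, have no test and carry exact 95% conditional intervals for counting error. For each count of GREM1 there were 20.3 counts of BMP4 in steers and 8.00 in bulls, a ratio 2.54 times as high in steers (interval 1.70 to 3.82). BMP2 per GREM1 was 1.73 times as high (1.10 to 2.72), and BMP6 per GREM1 was alike in both, at 1.24 and 1.22. BMP4 per BMP2 was 1.47 times as high in steers (1.15 to 1.89), and BMP4 per BMP6 2.48 times (1.73 to 3.59).

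The receptors BMPR1A and BMPR2 kept a ratio of 0.951 in steers and 1.02 in bulls. For each count of BMPR1B there were 6.17 counts of BMPR1A in steers and 1.77 in bulls, 3.48 times as high (2.31 to 5.33). ID1 per ID3 was 0.150 and 0.145, whereas ID1 per ID2 was 0.296 and 0.137, or 2.16 times as high in steers (1.64 to 2.87). Against the endothelial marker PECAM1, ID1 was 1.49 times as high (1.15 to 1.93). BMP4 per PDGFRA, a marker of stromal progenitors, was 1.98 times as high (1.76 to 2.24), and GREM1 per PDGFRA was at 0.780 with an interval of 0.524 to 1.15. PDGFRA alone among the 8 collagen and fibroblast genes had a log2FC below 0, at -0.48. LUM at 0.945 and THY1 at 0.999 lay above BMP4 at 0.51, and DCN at 0.036 and FBN1 at 0.346 lay below it. The direction of BMP4 against a stromal gene therefore depends on the gene chosen. BMP1, although higher in steers, was lower relative to both COL1A1 and PCOLCE, at 0.679 (0.628 to 0.735) and 0.553 (0.510 to 0.601). PCOLCE2, another enhancer in the list, differed in the other direction from PCOLCE and BMP1, with a log2FC of -0.31. The ratio of BMP1 to PCOLCE2 was not computed.

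Of 6 epithelial keratin and junction genes in the marker lists, KRT8 had 148 reads in steers against 7 in bulls and KRT18 had 77 and 20, KRT14 had 0 in both, and EPCAM had 8 in steers and 0 in bulls. Among 6 genes of bone and cartilage, ACAN had the most counts, 1556 in steers and 825 in bulls, BGLAP had 205 and 84 counts, COL2A1 30 and 113, and IBSP 0 in both. The part of either in the values of the BMP genes was not tested. Smooth muscle and pericyte genes had 15962 reads in steers against 15360 in bulls, with 0 of 5 past 2-fold.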
